A study of Mus musculus with 4 samples.

Results

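Wild-type osteoclasts were set against the wild-type macrophages they are grown from, on 1 array each, which are 2 of the 4 arrays of the study. The study used one-colour microarrays on cells from mouse bone marrow, in 4 groups with 1 array each. Wild-type macrophages were marrow cells kept for 4 days with M-CSF at 25 ng/ml, and wild-type osteoclasts were such macrophages given 3 more days with RANKL at 50 ng/ml while M-CSF stayed at 25 ng/ml. RANKL and 3 days of culture thus changed together. All cells grew in RPMI1640 with 10% serum, and 100 ng of RNA was labelled with Cy3. The remaining groups were the same cell types from LysM-St18flox mice, by convention a loxP-flanked St18 gene with Cre from the lysozyme M locus, which acts in myeloid cells. They served here as a second osteoclast and macrophage pair, of another genotype, that shares no array with the wild-type pair. The number and sex of the mice, and whether they were pooled, are not stated in the sources used here.

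Osteoclasts are the multinucleated cells that dissolve bone. They form when M-CSF keeps macrophage precursors alive and RANKL binds its receptor RANK on them, which recruits TRAF adaptors and activates NF-kappaB and AP-1 factors. With calcium signals from ITAM-linked receptors these induce Nfatc1, the factor that drives fusion, acid secretion and collagen digestion, while factors that keep the macrophage state are switched off. The account below is about the genes beyond these classic ones.

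Levels are log2 of the processed signal relative to the 75th percentile of the array, and differences are osteoclast minus macrophage on that log2 scale. A gene was measured when its probe stood well above background on either wild-type array. It was called higher or lower from a 2-fold difference on, which sets a size and involves no test. Where the gene was not well above background on 1 array, the difference is a bound against the lowest signal well above background there, written as "at least". With 1 array a group there is no replicate, so no difference given here has a spread between cultures behind it. Spots of the same probe had a median SD of 0.0422 in macrophages and 0.0367 in osteoclasts, which gives an SD of 0.056 for a difference, from the array alone. Between 59.0% and 63.2% of probe spots were well above background over the 4 arrays, and 0 were saturated. Xist stood at 0.18 in macrophages and -0.07 in osteoclasts, and 4 Y-linked genes (Ddx3y, Kdm5d, Eif2s3y and Uty) were not well above background on either array.

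The labels were checked against marker genes. All 10 osteoclast markers chosen for this (Ctsk, Acp5, Mmp9, Calcr, Itgb3, Oscar, Ocstamp, Dcstamp, Atp6v0d2 and Nfatc1) were higher on the osteoclast array. Of the 10 macrophage markers, 5 were lower, and all 10 were still well above background on either array. Markers of other cell types were measured on the same arrays. Of the neutrophil markers 12 of 15 with a probe were well above background on either array, 2 of them lower (Ctsg and Mmp8) and 1 higher (Cxcr2, by a bound), with a summed linear level, in multiples of the 75th percentile, of 35.4 in macrophages and 17.4 in osteoclasts. Of the B cell markers 6 of 11 were, 2 of them lower, with sums of 48.0 and 54.6 and with Cd79a and Ebf1 not well above background. The T and NK cell list had sums of 17.7 and 17.5 with no member past 2-fold, and Cd3g, Cd8a and Nkg7 were not well above background. Of the stromal markers 4 of 17 were well above background, with sums of 1.67 and 1.91, and Col1a1, Col3a1, Pdgfra and Tnfsf11, which encodes RANKL, were not. Among the stromal markers measured 1 was higher (Dcn) and 0 were lower. Of the dendritic cell markers 8 of 13 were well above background, with sums of 210.8 and 168.4. Of these, 3 were lower (Batf3, Bst2 and, by a bound, Xcr1) and none was higher, and Flt3, Zbtb46 and Clec9a were not well above background. The sums were 4.80 and 12.1 for erythroid markers (with Klf1 and Alas2 not well above background), 6.78 and 6.28 for endothelial ones (Cldn5, Tek and Tie1 not) and 0.534 and 0.522 for mast cell and basophil ones (Kit, Cpa3 and Ms4a2 not). Of the 4 erythroid markers measured only Tfrc was higher, and Epor was lower by a bound. Car1 and Hba-a1 differed by -0.10 and -0.25. The part of such cells in the results was not tested.

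Of 14734 genes measured, 840 (5.70%) were at least 2-fold higher in wild-type osteoclasts and 1078 (7.32%) at least 2-fold lower, together 1918 genes. In this mixture of RNA, fewer cells of a type and less RNA per cell cannot be told apart. The median difference over all genes was 0.00 and the median size of a difference was 0.31. Lower genes were more numerous, but higher genes moved farther. At least 4-fold, 276 genes were higher and 251 lower, and at least 8-fold, 132 were higher and 58 lower. A difference of 5 or more on the log2 scale was reached by 33 higher genes and 3 lower ones. Of the higher genes 204 were not well above background in macrophages, and of the lower genes 128 were not well above background in osteoclasts.

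**Figure D1:**
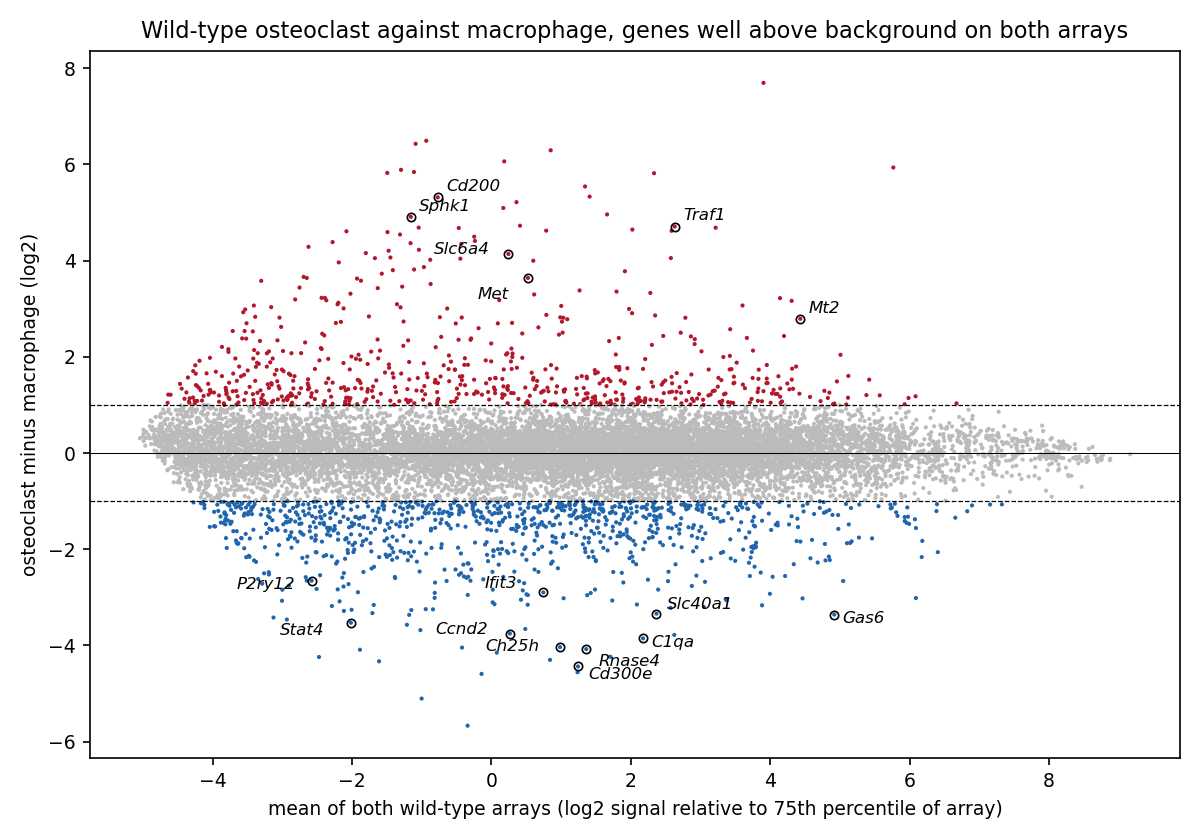
Each point is 1 of the 13881 genes well above background on both wild-type arrays, with its mean log2 level on the horizontal axis and the osteoclast minus macrophage difference (log2) on the vertical axis. Red points are at least 2-fold higher and blue points at least 2-fold lower (dashed lines), and the red points reach farther from 0 than the blue ones, from Fcrls at -5.67 to Ctsk at 7.69.

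The LysM-St18flox pair moved the same genes the same way in most cases. Of genes higher by 1 to 2 in the wild type, 421 of 542 (77.7%) were also at least 2-fold higher in LysM-St18flox. The share was 95.5% (128 of 134) of those higher by 2 to 3, 91.4% (53 of 58) by 3 to 4 and 100% (71 of 71) by 4 or more. Of genes lower by 1 to 2, 701 of 815 (86%) were also at least 2-fold lower. The share was 94.6% (176 of 186) of those lower by 2 to 3, 95.2% (40 of 42) by 3 to 4 and 93.8% (15 of 16) by 4 or more, where Fam120a was the exception. The background is 11.0% of genes higher and 12.2% lower in LysM-St18flox. Probes of the same gene mostly moved alike. Of 177 higher genes with several probes, 175 had every probe above 0, and of 267 lower genes 260 had every probe below 0. Every probe was at least 2-fold higher in 122 of those 177 genes, and at least 2-fold lower in 172 of those 267.

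**Figure D2:**
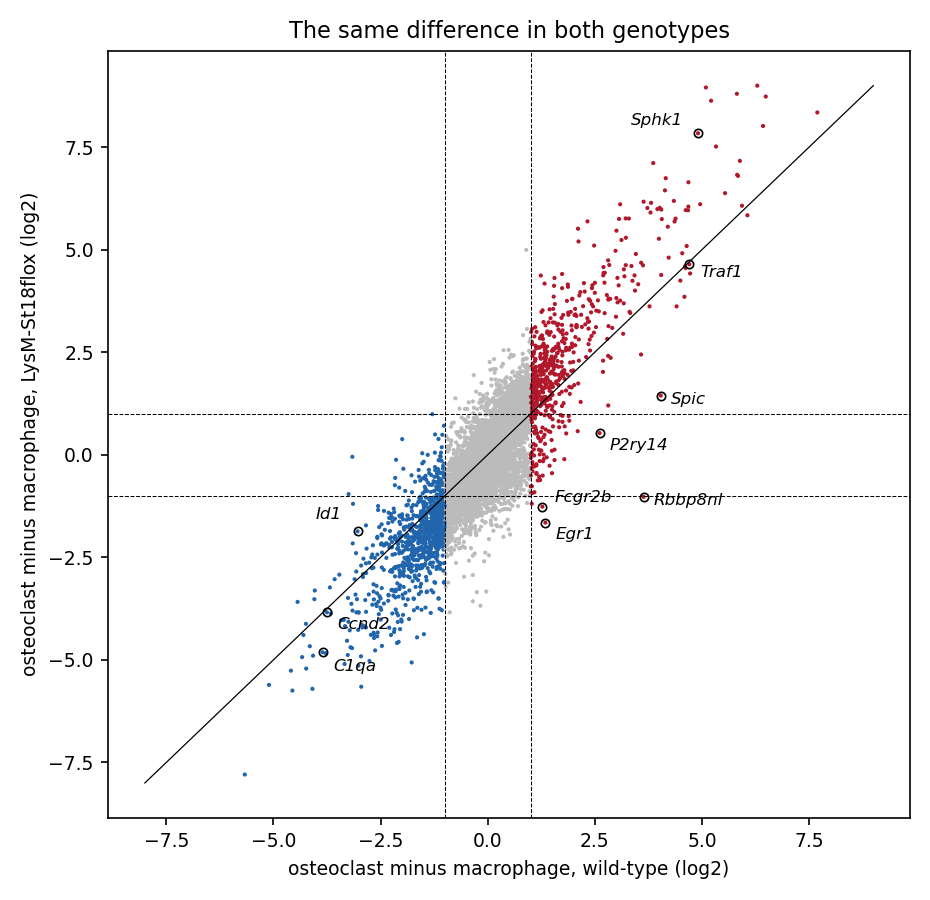
Each point is a gene that passed the background criterion on every array, with its osteoclast minus macrophage difference (log2) for wild-type cells on the horizontal axis and for LysM-St18flox cells on the vertical axis. The solid line marks equal differences and the dashed lines 2-fold, and Traf1 lies near the line at 4.71 and 4.64, whereas Spic and P2ry14 lie below it at 4.04 and 1.44, and 2.61 and 0.53.

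The signalling genes that RANK engages were higher in part. Of 33 measured genes of RANK and NF-kappaB signalling 10 were higher and 0 lower, with a median difference of 0.25. Traf1, an adaptor of TNF receptors that is itself induced by NF-kappaB, was at 0.28 in macrophages and 4.98 in osteoclasts, 26.1-fold higher. Birc3, a ubiquitin ligase that works with TRAF proteins, was at -0.80 in macrophages and 1.37 in osteoclasts, 4.5-fold higher. The noncanonical subunit genes Nfkb2 and Relb differed by 1.73 and 1.25. Genes whose products hold NF-kappaB back or bind it were among the higher ones as well. Nfkbie, which holds NF-kappaB in the cytoplasm, was at 1.79 in macrophages and 3.38 in osteoclasts. Bcl3, a nuclear partner of NF-kappaB subunits, was at 2.75 in macrophages and 4.20 in osteoclasts. Tnfaip3, a ubiquitin-editing inhibitor of the pathway, was at 1.36 in macrophages and 2.42 in osteoclasts. Traf2, Traf3 and Tank differed by 1.34, 1.27 and 1.22.

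Some factors that promote osteoclast formation were higher and some that restrain it lower, and most members of either list did not pass 2-fold in either direction. Of 24 factors known to promote osteoclast formation 8 were higher and 1, Batf3, was lower (-1.70). Jdp2, a bZIP partner of Jun proteins, was at 0.87 in macrophages and 5.56 in osteoclasts, 25.7-fold higher. Fosl2, another AP-1 subunit, was at 1.47 in macrophages and 3.97 in osteoclasts, 5.66-fold higher. Prdm1, a repressor that silences macrophage genes in osteoclasts, was at -0.65 in macrophages and 2.22 in osteoclasts. Bhlhe40, a basic helix-loop-helix repressor, was at -0.23 in macrophages and 2.27 in osteoclasts. All 4 of these genes were well above background before RANKL. Of 25 factors known to restrain osteoclast formation 10 were lower and 2 higher, with a median of -0.94. The Id proteins, which block basic helix-loop-helix factors, lay in it. Id1 was at 4.88 in macrophages and 1.84 in osteoclasts, 8.21-fold lower. Id3 differed by -1.92 and Id2 by -1.36, and in LysM-St18flox these differences were -1.87 for Id1, -0.88 for Id3 and -0.45 for Id2. Klf2 was at 3.71 in macrophages and 1.75 in osteoclasts. Lhx2 was at -2.29 in macrophages and -4.52 in osteoclasts. Cebpa, a myeloid identity factor, was at 2.53 in macrophages and 1.26 in osteoclasts. Zeb1, a repressor best known from the epithelial to mesenchymal transition, was on this list and higher, at -3.77 in macrophages and -1.69 in osteoclasts. The other higher one was Bach2, a repressor of the bZIP family, at least 1.07 by a bound.

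Factors outside those lists also moved far. Mycl, a member of the Myc family, was not well above background in macrophages and at 0.87 in osteoclasts, at least 72.8-fold higher. Zbtb32, a zinc finger repressor of lymphocytes, was at -1.53 in macrophages and 3.10 in osteoclasts, 24.6-fold higher. Gfi1b, a repressor known from erythroid and megakaryocyte precursors, was at -3.58 in macrophages and 0.96 in osteoclasts, 23.3-fold higher. Spic, the ETS factor of splenic red pulp macrophages, was at -2.46 in macrophages and 1.57 in osteoclasts, 16.4-fold higher. It was the 1 higher member of the 28 measured genes of a list for resident macrophages. Among 18 measured ETS factors 6 were lower and Spic alone was higher, and of the lower ones Etv5 was at 5.32 in macrophages and 2.75 in osteoclasts.

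Most measured genes of calcium and ITAM signalling did not pass 2-fold. Of 30 measured genes of calcium and calcineurin signalling 2 were higher (6.67%, against 5.70% of all genes) and 0 lower. Camk2a, a calcium and calmodulin dependent kinase best known from neurons, was at -4.47 in macrophages and -1.03 in osteoclasts, 10.8-fold higher. Rcan1, an inhibitor of calcineurin that NFAT factors induce, was at 3.32 in macrophages and 4.91 in osteoclasts, 3.02-fold higher. The calcineurin catalytic gene Ppp3ca differed by -0.47. Among 26 ITAM receptors and kinases 3 were higher and 3 lower (11.5% each way, against 5.70% higher and 7.32% lower of all genes). The lower ones were Slamf9 and, both just past 2-fold, Fcer1g and Trem2. Siglec15, a DAP12-linked receptor needed for normal osteoclasts, was not well above background in macrophages and at -1.72 in osteoclasts, at least 12.1-fold higher. Fgr, a Src family kinase, was at -0.70 in macrophages and 1.30 in osteoclasts, 3.99-fold higher.

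Several cell surface receptors and ligands were far higher on the osteoclast array. Mst1r, the receptor tyrosine kinase RON, had the largest bound among higher genes outside the classic lists. It was not well above background in macrophages and at 3.58 in osteoclasts, at least 476-fold higher. Its close relative Met, the receptor of hepatocyte growth factor, was at -1.30 in macrophages and 2.34 in osteoclasts, 12.5-fold higher. Egfr was at -1.48 in macrophages and 0.90 in osteoclasts, 5.21-fold higher. These 3 kinases receive growth factors from outside the cell. Gfra2, the receptor of the neurotrophic factor neurturin, was at -3.34 in macrophages and 1.02 in osteoclasts, 20.6-fold higher. Tnfrsf9, the costimulatory receptor 4-1BB, was not well above background in macrophages and at 0.91 in osteoclasts, at least 74.9-fold higher, while its ligand gene Tnfsf9 differed by -1.23. Cd200, which binds an inhibitory receptor on myeloid cells, was at -3.43 in macrophages and 1.89 in osteoclasts, 39.8-fold higher. Il34, the other ligand of the M-CSF receptor, was at -4.77 in macrophages and -0.48 in osteoclasts, 19.5-fold higher. Spry1, an inhibitor of receptor tyrosine kinase signalling, was at -3.48 in macrophages and 0.58 in osteoclasts, 16.7-fold higher.

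Receptors of small molecules and proteases were also among them. Gpr132, a G protein-coupled receptor, was at 1.38 in macrophages and 4.19 in osteoclasts, 7.02-fold higher. Sucnr1, the receptor of succinate, was not well above background in macrophages and at 0.46 in osteoclasts, at least 54.8-fold higher. F2r, the thrombin receptor, was not well above background in macrophages and at 0.64 in osteoclasts, at least 62.3-fold higher. P2rx5, an ATP-gated channel, was at -3.39 in macrophages and 1.30 in osteoclasts, 25.7-fold higher. Ccr1, a chemokine receptor, was at -4.86 in macrophages and -2.16 in osteoclasts, 6.49-fold higher, whereas Ccr2 was at 0.69 in macrophages and -2.32 in osteoclasts, 8.06-fold lower, and Cx3cr1 differed by -2.56. The chemokine receptors thus moved both ways, with 3 of 16 measured higher and 5 lower.

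**Figure D3:**
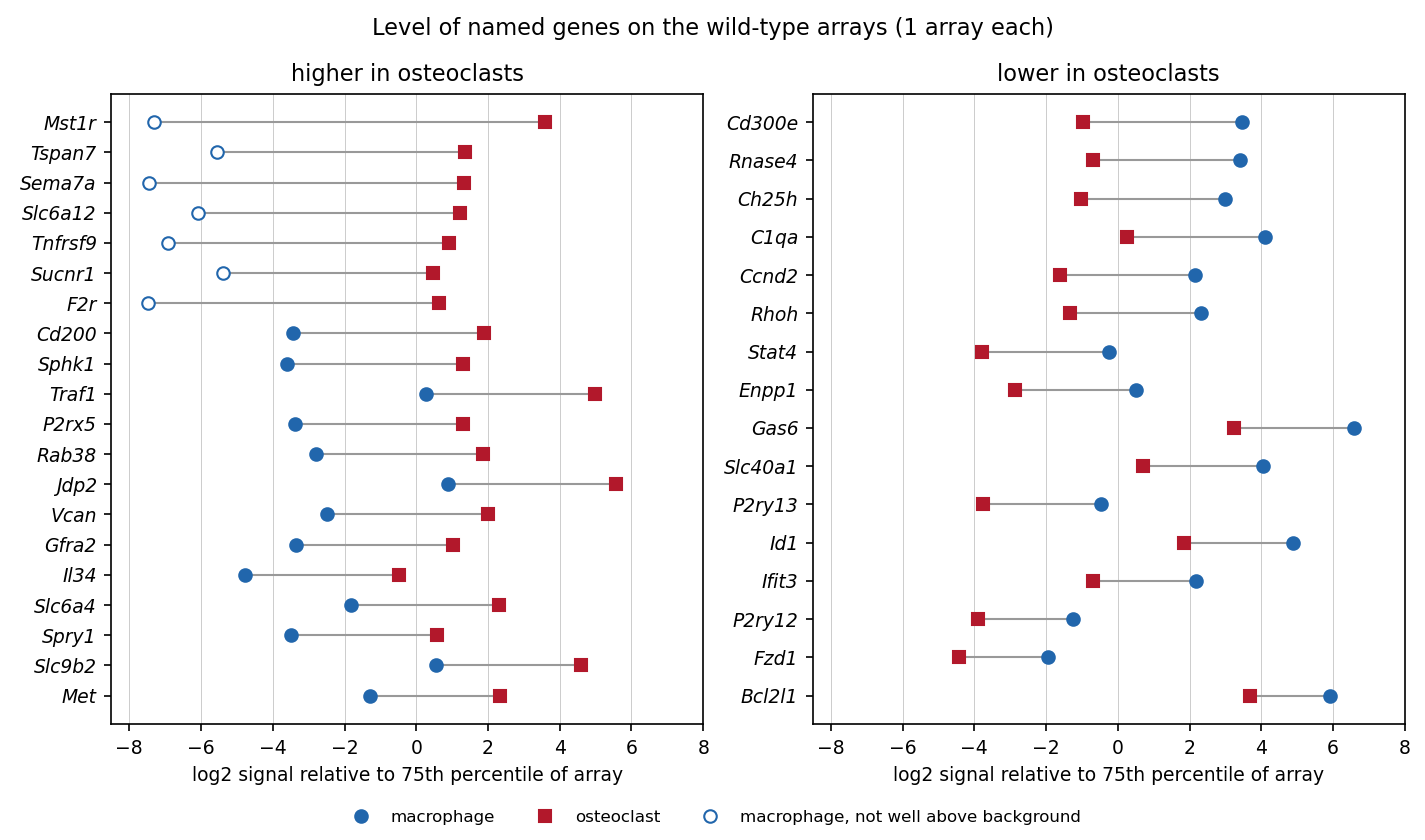
Log2 level of named genes (relative to the 75th percentile of the array) on the wild-type macrophage array (blue circles) and osteoclast array (red squares), with open circles where the macrophage signal was not well above background. Several higher genes start from background and several from a clear level, as with Jdp2 at 0.87 and 5.56, and the lower genes shown stay well above background in osteoclasts, as with Gas6 at 3.24.

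Guidance, adhesion and matrix genes changed member by member. Sema7a, a membrane-anchored semaphorin, was not well above background in macrophages and at 1.34 in osteoclasts, at least 101-fold higher. Sema3d, a secreted one, was not well above background in macrophages and at -1.86 in osteoclasts, at least 11-fold higher. Plxna4, a semaphorin receptor, was at -4.24 in macrophages and 1.65 in osteoclasts, 59.1-fold higher. Its relatives Plxna2 and Plxnd1 differed by 1.01 and 1.45, and Plxnc1, the plexin that binds Sema7a, was at 1.66 in macrophages and -0.44 in osteoclasts, 4.28-fold lower. Ligand and receptor of that pair therefore moved in opposite directions. Of 13 measured semaphorins 4 were higher and 1 lower, and of 8 plexins 3 and 3. Tspan7, a tetraspanin, was not well above background in macrophages and at 1.36 in osteoclasts, at least 102-fold higher. Efnb2, an ephrin that osteoclasts show to osteoblasts, was not well above background in macrophages and at -1.96 in osteoclasts, at least 10.2-fold higher. Besides Itgb3 no integrin was higher. Of 19 measured 6 were lower, among them Itga9, which was at -0.73 in macrophages and -3.51 in osteoclasts, Itga8, which was at 1.95 in macrophages and -1.10 in osteoclasts, and Itgb5, another partner of the alpha v chain, which was at 5.50 in macrophages and 3.70 in osteoclasts.

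Some matrix genes were higher. Of 18 measured collagens 5 were higher and 1 lower, and 4 of the higher ones encode collagen IV, the network of basement membranes. Col4a6 was at -3.67 in macrophages and -1.19 in osteoclasts, 5.57-fold higher. Col4a1 was at -0.18 in macrophages and 1.39 in osteoclasts and Col4a2, its partner chain, was at 0.40 in macrophages and 1.68 in osteoclasts. Col4a5 was at -0.45 in macrophages and 0.90 in osteoclasts. Vcan, a large chondroitin sulfate proteoglycan, was at -2.49 in macrophages and 2.0 in osteoclasts, 22.6-fold higher. Its chains are built by Chpf, which differed by 5.84, and sulfated by Chst11, which was at -3.06 in macrophages and -1.19 in osteoclasts, 3.66-fold higher. Ext1, which builds heparan sulfate, was at -0.81 in macrophages and 1.27 in osteoclasts, 4.21-fold higher. Chst3, another chondroitin sulfotransferase, was at 0.92 in macrophages and -1.5 in osteoclasts, 5.35-fold lower. Of the 35 measured genes of these syntheses 4 were higher and 5 lower, with a median of -0.03.

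Single members of cytoskeletal and trafficking families were far higher, and others were lower. Of 46 measured genes of podosomes and the sealing zone 7 (15.2%) were higher and 1 (2.17%) lower, with a median of -0.05. The shares of all genes were 5.70% and 7.32%. Scin, an actin-severing protein, was at -2.25 in macrophages and 2.97 in osteoclasts, 37.1-fold higher. Rhou, an atypical small GTPase, was at -3.44 in macrophages and 0.29 in osteoclasts, 13.2-fold higher. Dock5, an activator of Rac needed for the sealing zone, was at 1.73 in macrophages and 4.10 in osteoclasts, 5.16-fold higher. Of 19 myosins 3 (15.8%) were higher. Among them were Myo1d, at 2.07 in macrophages and 5.13 in osteoclasts, and Myo15, which differed by 1.22. Rab38, a Rab GTPase of lysosome-related organelles, was at -2.81 in macrophages and 1.87 in osteoclasts, 25.6-fold higher. Rufy4, a RUN and FYVE domain protein, was not well above background in macrophages and at 3.18 in osteoclasts, at least 362-fold higher. Rab32, a close relative of Rab38, was at 5.87 in macrophages and 4.38 in osteoclasts, 2.8-fold lower. Of 49 measured Rab genes 2 (4.08%) were higher and 7 (14.3%) lower, against 5.70% and 7.32% of all genes. The other higher one, Rab30, was known only by a bound. Rhoh, a small GTPase of blood cells, was at 2.32 in macrophages and -1.34 in osteoclasts, 12.6-fold lower.

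Of 254 measured solute carriers 19 (7.48%) were higher and 20 (7.87%) lower, shares near the 5.70% and 7.32% of all genes, so the transporters below are single genes. Slc9b2, a sodium proton exchanger of osteoclasts, was at 0.55 in macrophages and 4.60 in osteoclasts, 16.6-fold higher. Slc4a7, a bicarbonate importer, was at 2.41 in macrophages and 4.43 in osteoclasts, 4.05-fold higher. Clic5, a chloride channel protein, was not well above background in macrophages and at -3.26 in osteoclasts, at least 4.17-fold higher. Slc6a12, the transporter of betaine and GABA, was not well above background in macrophages and at 1.21 in osteoclasts, at least 92.5-fold higher. Slc6a4, the serotonin transporter, was at -1.82 in macrophages and 2.31 in osteoclasts, 17.6-fold higher. Slc40a1, the iron exporter ferroportin, was at 4.04 in macrophages and 0.70 in osteoclasts, 10.1-fold lower. Tfrc, which brings iron in, was at 2.06 in macrophages and 3.53 in osteoclasts, 2.78-fold higher. Hmox1, which frees iron from heme, was at 7.33 in macrophages and 5.98 in osteoclasts, 2.54-fold lower. The genes of iron import and export named here thus moved in opposite directions. Of 18 measured genes of zinc handling 4 were higher and 0 lower. Mt2 was at 3.04 in macrophages and 5.83 in osteoclasts, 6.92-fold higher. Mt3 was at -0.80 in macrophages and 1.68 in osteoclasts, 5.59-fold higher, while Mt1 and the zinc importer Slc39a4 differed by 1.03 and 1.79. The metallothionein genes are close copies, so their probes may share signal.

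Genes for making ribosomes shifted together by small amounts. All 30 measured genes of ribosome biogenesis were above 0, with a median of 0.83 against 0.00 over all genes, and 8 reached 2-fold. Dkc1, which catalyses pseudouridylation of rRNA, was at -0.45 in macrophages and 0.77 in osteoclasts. Polr1b, a subunit of RNA polymerase I, was at 0.77 in macrophages and 1.87 in osteoclasts. Ddx21, a nucleolar helicase, was at 2.25 in macrophages and 3.34 in osteoclasts. Myc, which drives these genes in many cells, was at 1.95 in macrophages and 3.23 in osteoclasts, 2.42-fold higher. Small nucleolar RNAs, which guide the modification of rRNA, were in part higher too. Of 21 measured small RNA genes 7 were higher and 0 lower, and of 13 genes that host snoRNAs in their introns 6 and 0. Snora74a was at -1.53 in macrophages and 0.37 in osteoclasts, 3.73-fold higher. Snhg4, a gene that hosts snoRNAs, was at -3.40 in macrophages and -1.66 in osteoclasts, 3.36-fold higher. Snhg1 was at -0.57 in macrophages and 0.68 in osteoclasts. Probes of a snoRNA may also detect the host transcript. The 79 cytosolic ribosomal protein genes had a median of 0.26, and the 78 mitochondrial ones 0.37, with 2 past 2-fold.

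Genes of other metabolic groups moved as well. Of 18 measured genes of serine, glycine and one-carbon metabolism 5 were higher and 0 lower, with a median of 0.55. Shmt2, which makes glycine from serine in mitochondria, was at 2.20 in macrophages and 3.47 in osteoclasts. Its cytosolic counterpart Shmt1 was at -2.28 in macrophages and -1.12 in osteoclasts. Slc1a5, a glutamine carrier, was at 2.25 in macrophages and 3.98 in osteoclasts. Ass1, which joins citrulline and aspartate on the way to arginine, was at 1.96 in macrophages and 4.07 in osteoclasts, 4.33-fold higher. Sphk1, which makes sphingosine 1-phosphate, was at -3.61 in macrophages and 1.30 in osteoclasts, 30-fold higher. Of 16 measured genes of fatty acid synthesis and elongation 4 were lower, 0 were higher and 15 were below 0. The lower ones were Fads2, Fads3, Scd2 and Insig1. The synthesis genes Fasn, Acaca, Acacb and Acly differed by only -0.02, -0.10, -0.03 and -0.01. Fads2, a desaturase of polyunsaturated fatty acids, was at -0.79 in macrophages and -3.62 in osteoclasts, 7.14-fold lower. Scd2, another desaturase, was at 1.15 in macrophages and -0.84 in osteoclasts, 3.98-fold lower. Ch25h, which makes 25-hydroxycholesterol, was at 3.00 in macrophages and -1.03 in osteoclasts, 16.4-fold lower.

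In the heat shock list 3 of 14 genes were higher. Hspa1a was at -0.42 in macrophages and 2.40 in osteoclasts, 7.06-fold higher. Hspa1b was at -1.83 in macrophages and 0.98 in osteoclasts, 7.04-fold higher. These genes encode nearly the same protein, so the probes may share signal. No gene of the unfolded protein response list passed 2-fold in either direction, of 24 measured, and none of the 49 proteasome subunits.

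No gene of the cell cycle list was higher. Of 56 measured genes 0 were higher and 4 (7.14%, against 7.32% of all genes) lower, with a median of -0.07. Ccnd2 was at 2.14 in macrophages and -1.61 in osteoclasts, 13.5-fold lower. Ccnd1 was at 6.64 in macrophages and 5.22 in osteoclasts, 2.66-fold lower. Cdkn1a, an inhibitor of cyclin-dependent kinases, was at 4.96 in macrophages and 3.65 in osteoclasts, 2.49-fold lower. E2f2 was at 4.41 in macrophages and 3.29 in osteoclasts. Of 15 measured survival and death genes of the Bcl2 family 3 were higher and 3 lower. Bcl2l1, which encodes Bcl-xL, was at 5.91 in macrophages and 3.68 in osteoclasts, 4.7-fold lower. Bcl2 was at 0.74 in macrophages and -0.85 in osteoclasts, 3-fold lower. Bok was at -1.48 in macrophages and 1.11 in osteoclasts, 6.04-fold higher. Pmaip1, which encodes Noxa, was at 0.57 in macrophages and 2.16 in osteoclasts, 3-fold higher. Bmf and Bik, which promote cell death, differed by 1.67 and -1.53.

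On the lower side stood the genes by which macrophages recognise and clear dying cells. Of 22 measured genes of this list 11 were lower and 0 higher, with a median of -1.04. C1qa, a chain of the first complement component, was at 4.10 in macrophages and 0.25 in osteoclasts, 14.4-fold lower. C1qb and C1qc, its partner chains, differed by -2.93 and -3.02. Gas6, which bridges dying cells to receptors, was at 6.60 in macrophages and 3.24 in osteoclasts, 10.3-fold lower. Pros1, a related bridging protein, was at 3.45 in macrophages and 1.68 in osteoclasts, 3.4-fold lower, and their receptors Axl and Mertk differed by -2.06 and -2.30. Tyro3, their further receptor, and Mfge8, another bridging protein, differed by 0.09 and -0.15, under 2-fold. Stab1, a scavenger receptor, was at 5.97 in macrophages and 3.74 in osteoclasts, 4.67-fold lower. Cd36 was at 4.77 in macrophages and 2.82 in osteoclasts, 3.88-fold lower.

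Most measured genes of a list for resident macrophages were lower as well. Ccr2 and Ly6c2 were counted in it too, so it is not of resident cells alone. Its members Clec4f, Lyve1, Sall1 and Timd4 were not well above background on either array. Tmem119, Fcna and Nr1h3 differed by 0.27, 0.21 and 0.78, and Vsig4 by a bound of -0.16. Of 28 measured 22 were lower and 1, Spic, was higher (4.04), with a median of -2.83, and the summed linear level of the list was 930.6 in macrophages and 214 in osteoclasts. Cd163, the receptor for haptoglobin and hemoglobin, was at -0.96 in macrophages and not well above background in osteoclasts, at least 15.3-fold lower. Folr2, a folate receptor, was at 4.96 in macrophages and 2.59 in osteoclasts. Cd5l, a secreted protein of tissue macrophages, was at 4.91 in macrophages and 1.84 in osteoclasts. Pf4, a chemokine also made by megakaryocytes, was at 7.60 in macrophages and 4.58 in osteoclasts. The megakaryocyte markers, Pf4 among them, had summed linear levels of 200.4 in macrophages and 29.9 in osteoclasts, with Itga2b, Gp9 and Gp1ba not well above background on either array, and their part in the result was not tested. The Toll-like receptor, Cd300, Ms4a and scavenger receptor genes held lower members and no higher one. Of 10 Toll-like receptors 5 were lower (Tlr1, Tlr3, Tlr7, Tlr8 and Tlr13), of 9 Cd300 genes 4, of 8 Ms4a genes 4 and of 13 scavenger receptors 6. The C-type lectins, counted with the Klr receptors, had 4 of 26 higher and 2 lower, with Clec4a4 and Klra17 at least 6.70 and at least 4.09, Clec2d at 1.90, Clec4a3 just past 2-fold, and Clec4e and Clec10a at -1.17 and -1.04. Cd300e was at 3.46 in macrophages and -0.98 in osteoclasts, 21.6-fold lower. Tlr1 was at 1.09 in macrophages and -0.90 in osteoclasts, 4-fold lower. Tlr13, a sensor of bacterial RNA, was at 6.35 in macrophages and 4.57 in osteoclasts. The 4 ribonuclease genes Ang, Ang2, Ang4 and Rnase4 differed by -3.25, -3.42, -3.33 and -4.08, and probes of such close relatives may share signal.

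Some genes of nucleotide, lipid mediator and growth factor sensing were lower and others higher. Of 33 measured growth factor receptors of the myeloid lineage 7 (21.2%) were lower and 3 (9.09%) higher, Met and Egfr above among the higher ones. The shares of all genes were 7.32% lower and 5.70% higher. Of 20 measured purinergic genes 5 (25.0%) were lower and 2 (10.0%) higher. P2ry12, a receptor of ADP, was at -1.25 in macrophages and -3.91 in osteoclasts, 6.29-fold lower, and its relative P2ry13 was at -0.47 in macrophages and -3.76 in osteoclasts, 9.73-fold lower. P2ry14, the receptor of UDP-glucose, was at -0.63 in macrophages and 1.98 in osteoclasts, 6.11-fold higher, while in LysM-St18flox its difference was 0.53. Entpd1, which breaks down ATP and ADP outside the cell, was at 1.46 in macrophages and -1.12 in osteoclasts, 5.96-fold lower. Enpp1, which makes pyrophosphate from ATP, was at 0.50 in macrophages and -2.86 in osteoclasts, 10.3-fold lower. Of 22 measured genes of prostaglandins and leukotrienes 10 (45.5%) were lower and 1 (4.55%) higher. The higher one, Akr1c18, a steroid dehydrogenase of the aldo-keto reductase family, was at -4.30 in macrophages and 2.13 in osteoclasts, 86-fold higher. Hpgd, which breaks down prostaglandins, was at 0.16 in macrophages and -3.93 in osteoclasts, 17-fold lower. Also lower were the receptors Ptger2, Ptger3, Ptger4 and Ptgir, which differed by -1.86, -1.15, -1.13 and -1.55. In the TGF-beta, activin and BMP list 11 of 39 genes (28.2%) were lower and 3 (7.69%) higher. Its inhibitors Smad6, Smad7 and Bambi differed by -1.49, -1.23 and -1.25, the receptor Acvrl1 by -1.72, and the receptor Acvr2a was higher at 1.96. Lifr, the receptor of leukemia inhibitory factor, was at -0.64 in macrophages and -3.72 in osteoclasts, 8.48-fold lower. Stat4 was at -0.25 in macrophages and -3.78 in osteoclasts, 11.5-fold lower. Fzd1, a Wnt receptor, was at -1.95 in macrophages and -4.43 in osteoclasts, 5.57-fold lower.

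**Figure D4:**
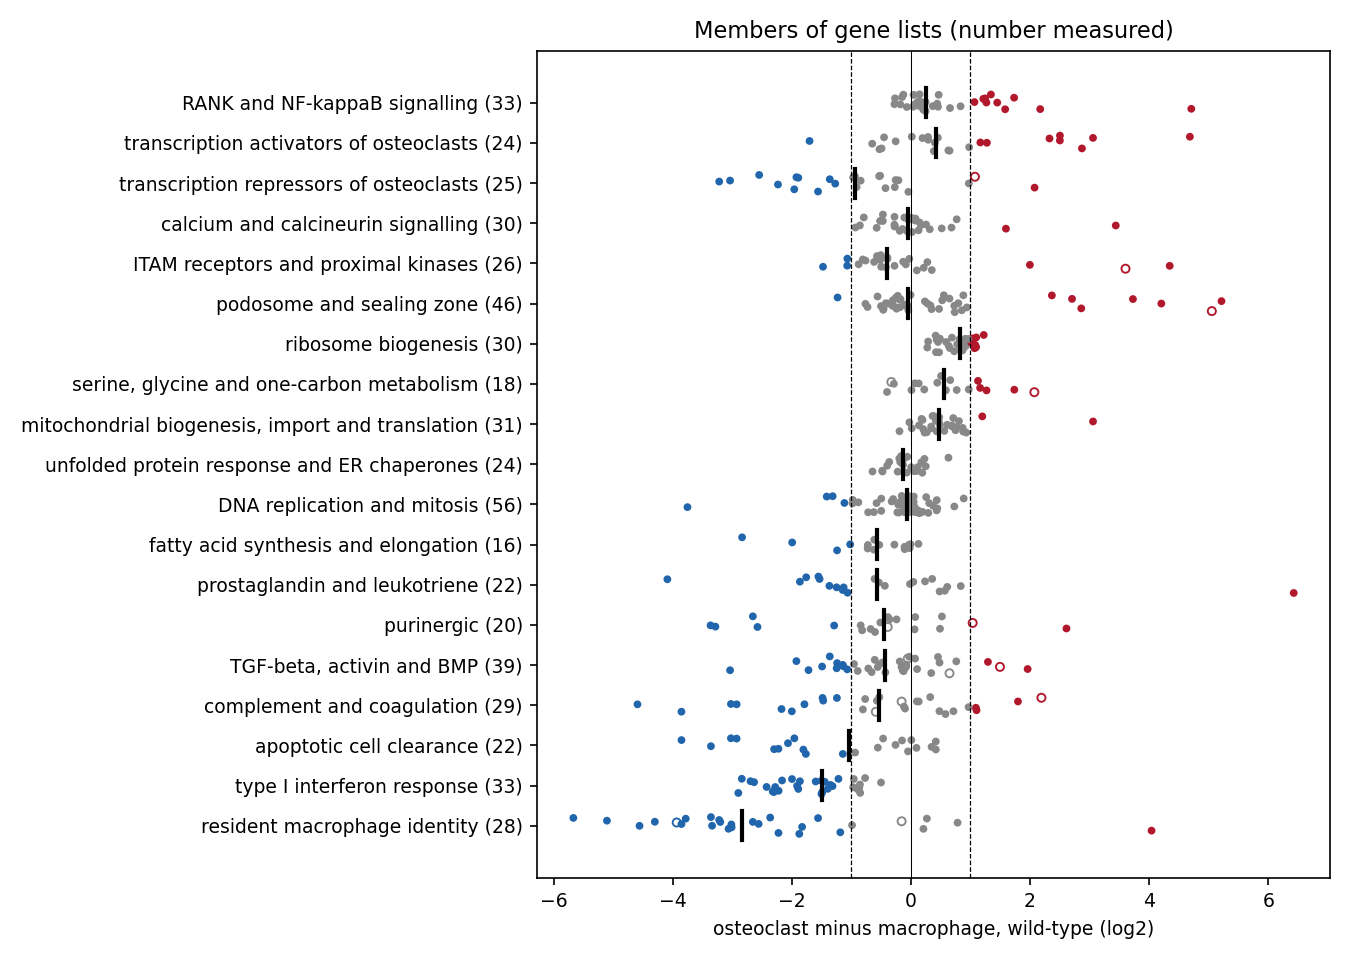
Each point is a measured member of a gene list, with its wild-type osteoclast minus macrophage difference (log2) on the horizontal axis, red at least 2-fold higher, blue at least 2-fold lower and open where the difference is a bound, and the black bar is the list's median. The medians run from -2.83 for the resident macrophage list to 0.83 for ribosome biogenesis, and several lists with a median near 0 hold single members far from it.

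The type I interferon response list was lower throughout. Of 33 measured genes 33 were below 0 and 23 at least 2-fold lower, with a median of -1.5, and of -1.55 between the LysM-St18flox cells. Ifit3, an interferon-induced RNA-binding family member, was at 2.19 in macrophages and -0.70 in osteoclasts, 7.46-fold lower. Rsad2, the antiviral enzyme viperin, was at 1.44 in macrophages and -1.40 in osteoclasts, 7.16-fold lower. Stat2, which carries the interferon signal, was at 3.57 in macrophages and 1.66 in osteoclasts, 3.76-fold lower. Of 9 immunity-related GTPases 7 were lower and 1, Gm12185, was higher by a bound, with a median of -1.69. Irgm1 was at 2.94 in macrophages and 1.74 in osteoclasts. Igtp was at 3.19 in macrophages and 1.53 in osteoclasts. Of 10 Oas genes 4 were lower and of 7 Schlafen genes 3, and neither family had a higher member. Of 24 measured genes with Ifit or Ifi symbols 11 were lower and 2 higher (8.33%, against 5.70% of all genes). Of 9 guanylate binding proteins 2 were lower and 0 higher.

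Some genes that lie next to each other were lower together. With a run taken as at least 4 measured neighbours that all passed 2-fold the same way, there were 9 lower runs and 0 higher ones. Both chemokine runs lie on chromosome 11. One held Ccl2, Ccl7, Ccl12 and Ccl8, with differences from -2.68 to -1.48, and the other Ccl6, Ccl3, Ccl4, Wfdc17 and Wfdc18, from -3.17 to -1.09. A further run on chromosome 11 held Cd300ld4, Cd300ld3, Cd300e and Rab37, from -4.44 to -1.60. The Ifit run on chromosome 19 lay between -2.90 and -2.17, the Phf11 run on chromosome 14 between -2.40 and -1.28, and the Ly6 run on chromosome 15 between -1.87 and -1.32. A run of Trim genes on chromosome 7 lay between -1.95 and -1.15. The remaining runs held Dapk1, 4930486L24Rik, Ctla2b, Tpbpb and Ctla2a on chromosome 13, and Gykl1, Sncaip, Snx2 and Snx24 on chromosome 18. Many members of these runs are related copies, and probes may detect more than 1 copy.

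Promoter sequences of these genes were read for 7 motifs, in the RefSeq table for GRCm38.p6, which holds 250 bases before and 50 after each start. A promoter was matched for 11725 of the 14734 measured genes. The motif TGANTCA, which AP-1 factors such as Fosl2 and Jdp2 bind, stood on either strand in 6.93% of these promoters (812 of 11725), and in 8.97% of the 27025 genes of the whole table. It stood in 12.3% of genes at least 2-fold higher (79 of 644), 17.8% of those at least 4-fold higher (36 of 202) and 21.3% of those at least 8-fold higher (19 of 89). Among genes at least 2-fold lower it stood in 10.2% (85 of 831), and among those at least 8-fold lower in 11.1% (5 of 45). In the type I interferon list, where every measured gene was below 0, it stood in 25.0% (6 of 24). Base composition moves with such shares, and with promoters of at least 50% GC alone the shares were 5.74% of all, 10.4% of higher and 7.99% of lower genes. A narrow form of the NF-kappaB consensus, GGGA and TTTCC with any base between them, stood in 0.546% of measured promoters. It stood in 0.932% of those of higher genes (6 of 644) and in 0.963% of those of lower genes (8 of 831). Other forms of that consensus were not searched for and stay in lower case in the sequences below. The following are the 250 bases before the start of 3 of the higher genes above, shown because the motifs lie close to the start, with matches to either motif in capitals, on either strand.

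Sphk1: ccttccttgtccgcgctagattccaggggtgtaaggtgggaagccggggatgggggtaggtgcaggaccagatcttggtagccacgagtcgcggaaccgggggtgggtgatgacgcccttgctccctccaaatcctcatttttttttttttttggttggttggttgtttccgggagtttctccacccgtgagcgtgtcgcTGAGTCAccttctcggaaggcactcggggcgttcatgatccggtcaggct
Slc6a12: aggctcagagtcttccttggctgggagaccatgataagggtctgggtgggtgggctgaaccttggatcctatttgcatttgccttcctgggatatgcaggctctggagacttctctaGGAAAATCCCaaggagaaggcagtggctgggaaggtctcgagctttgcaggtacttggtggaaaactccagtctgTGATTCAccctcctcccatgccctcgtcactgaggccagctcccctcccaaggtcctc
Tnfrsf9: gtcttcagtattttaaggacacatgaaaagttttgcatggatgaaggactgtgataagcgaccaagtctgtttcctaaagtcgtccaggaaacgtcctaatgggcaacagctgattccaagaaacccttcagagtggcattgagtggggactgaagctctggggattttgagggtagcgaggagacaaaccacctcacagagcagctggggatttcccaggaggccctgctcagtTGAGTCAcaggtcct

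In Sphk1 (chr11:116531587-116531836, plus strand) the match began 50 bases before the start, in Tnfrsf9 (chr4:150927749-150927998, plus strand) 15, and Slc6a12 (chr6:121342324-121342573, plus strand) held 1 match to each motif, 58 bases before it for TGANTCA. A match is a description of letters and was not tested as a site.

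A pair of GAAA with any 2 bases between them, which interferon regulatory factors and the STAT complex of type I interferon bind, stood in 3.91% of measured promoters (459 of 11725) and 3.99% of the whole table. It stood in 9.15% of genes at least 2-fold lower (76 of 831) and 3.11% of genes at least 2-fold higher (20 of 644). Of the type I interferon list 13 of 24 promoters held it, and outside that list 8.11% of the lower genes did (66 of 814). With promoters of at least 50% GC alone the shares were 3.04% of all, 2.35% of higher and 5.87% of lower genes. The motif GAGGAAGT, which the myeloid factor PU.1 binds, stood in 3.82% of measured promoters and 3.69% of the whole table, 2.95% of higher and 6.98% of lower genes (58 of 831), and 13.3% of genes at least 8-fold lower (6 of 45). The next promoters are of genes at least 2-fold lower, shown with matches to the GAAA pair, to TGANTCA and to the motif of PU.1 in capitals, on either strand.

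Ifit3: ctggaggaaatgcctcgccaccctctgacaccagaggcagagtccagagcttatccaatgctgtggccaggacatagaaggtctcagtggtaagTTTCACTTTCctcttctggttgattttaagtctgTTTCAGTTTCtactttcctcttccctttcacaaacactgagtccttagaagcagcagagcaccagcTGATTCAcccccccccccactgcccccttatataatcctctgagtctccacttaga
Rsad2: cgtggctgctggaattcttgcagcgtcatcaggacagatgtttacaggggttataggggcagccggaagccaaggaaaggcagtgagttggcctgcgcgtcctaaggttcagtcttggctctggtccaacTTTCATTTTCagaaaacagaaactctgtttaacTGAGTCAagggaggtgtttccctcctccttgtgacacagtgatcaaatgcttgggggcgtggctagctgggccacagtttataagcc
C1qc: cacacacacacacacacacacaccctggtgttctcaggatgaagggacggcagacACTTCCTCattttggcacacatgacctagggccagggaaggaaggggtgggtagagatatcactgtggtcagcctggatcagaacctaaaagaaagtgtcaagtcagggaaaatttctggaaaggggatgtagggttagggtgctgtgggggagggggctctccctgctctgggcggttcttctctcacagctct
Pf4: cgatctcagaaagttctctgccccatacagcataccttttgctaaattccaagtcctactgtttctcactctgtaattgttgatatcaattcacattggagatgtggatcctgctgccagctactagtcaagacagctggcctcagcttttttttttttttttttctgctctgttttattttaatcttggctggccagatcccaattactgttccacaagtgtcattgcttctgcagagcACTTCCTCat

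Ifit3 (chr19:34583279-34583528, plus strand) and Rsad2 (chr12:26456453-26456702, minus strand) both held the paired GAAA, written here as its reverse complement, and TGANTCA, with 2 copies of the former in Ifit3. C1qc (chr4:136892915-136893164, minus strand) and Pf4 (chr5:90772185-90772434, plus strand) each held GAGGAAGT, written here as its reverse complement, in Pf4 10 bases before the start. The motifs TCACGTGA of MITF and TFE factors, TCAAGGTCA of estrogen-related receptors and the palindrome of NRF1 stood in 1.24%, 0.155% and 0.932% of higher genes and in 1.32%, 0.241% and 0.963% of lower genes, against 1.97%, 0.324% and 2.0% of all measured. None of the 7 motifs contains another.

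**Figure D5:**
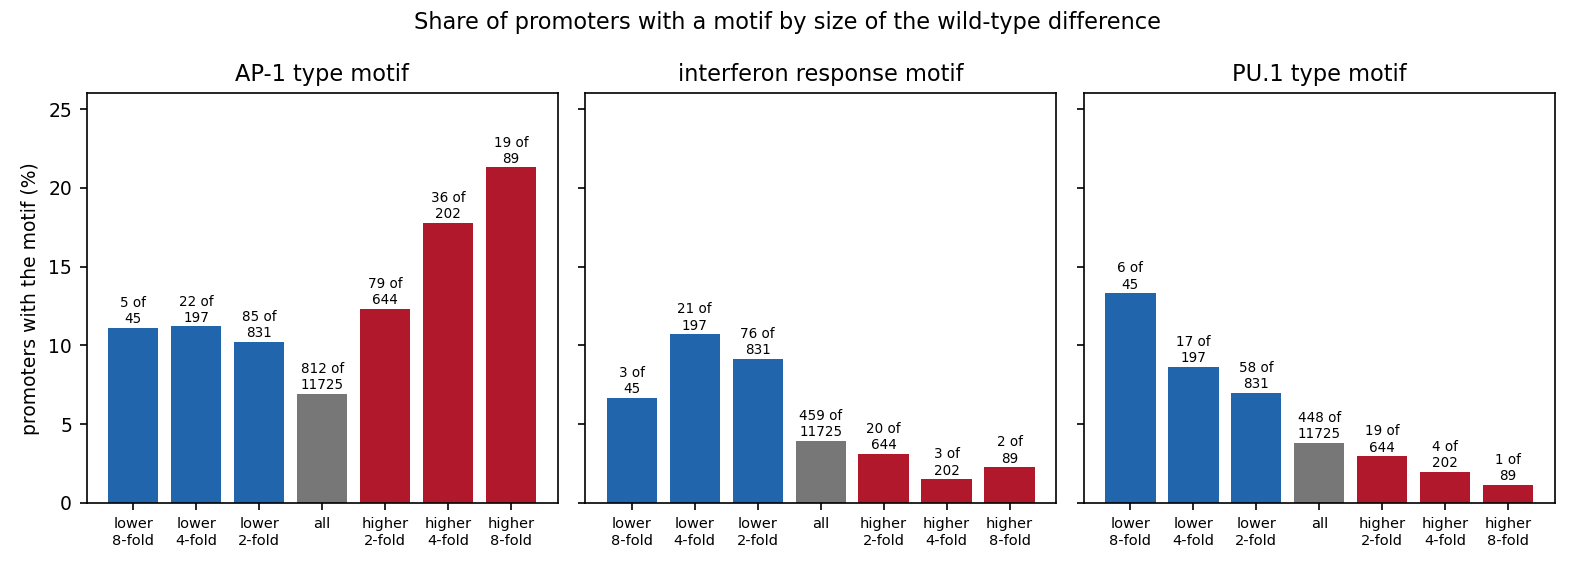
Share of promoters (vertical axis, percent) that hold TGANTCA (left), the paired GAAA of interferon factors (middle) or GAGGAAGT (right) among genes grouped by the size of the wild-type difference, with the number of genes above each bar and no error drawn. The groups at least 2-fold, 4-fold and 8-fold are nested, and the share with TGANTCA runs from 6.93% of all genes to 21.3% of those at least 8-fold higher.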

How the data were processed

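Total RNA of 4 bone marrow cultures was measured on one-colour arrays, and the submitters' processing notes name Agilent Feature Extraction 11.0.1.1. Scanner files deposited by the authors hold, for each spot, a processed intensity, background-subtracted within the array and not scaled between arrays, per the file headers, and 0 or 1 flags for spots above background, at saturation or of poor quality. A log2 table deposited by the authors was an alternative only.

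Spots flagged as uneven or outlying were left out, log2 processed signals were averaged over the spots of a probe, and the array's 75th percentile over 56575 probes besides controls was subtracted (Python 3.11.15, pandas 2.3.3). RefSeq accessions named 32977 probes for 22903 genes through a GRCm38.p6 table. As the array was designed on another build, no gene coordinates are printed, and promoter coordinates are those of the promoter table. A gene was represented by its brightest probe. Without a second array in any group, tests and p-values were not computed, and precision is limited by how few arrays there are. The computation of the 2-fold calls was tested on simulated probe signals with known fold changes. All changed probes there stayed above background on each array. Calls by a bound and the choice of a gene's probe were thus not tested.

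Lists (57, with 1320 of 1336 members having a probe) and 111 families defined by symbol were chosen with earlier results of these data known. Some family patterns were narrowed after values were seen, to drop genes of other families. Named genes are members of these, the 40 largest and 40 smallest differences measured on both arrays and outside the classic lists, the 15 largest bounds each way, and genes in runs of neighbours. The 7 promoters printed were chosen after values were seen. Alternatives were other scalings, normexp (limma 3.58.1, offset 50), other filters, probes averaged by their median, flagged spots kept, the authors' table and a 3-fold criterion. The normexp setting used the median signal of a spot, since the mean signal was not in the columns used here. The genotypes were compared only by setting their differences side by side. Some genes are not reported here.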

Additional observations from a re-analysis of the deposited data

Results flagged for a closer look

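In 8 genes the osteoclast minus macrophage difference passed 2-fold upward between wild-type cells and downward between LysM-St18flox cells, and this disagreement of the genotypes was not tested. The wild-type value is given first. Egr1, an immediate early factor, differed by 1.35 and -1.65. Fcgr2b, the inhibitory IgG receptor, differed by 1.28 and -1.26. Rbbp8nl differed by 3.64 and -1.03, and Klk1b11 by 1.03 and -1.19. The other values involve a signal not well above background on 1 or both sides. For Dnah2 the values were at least 1.57 and -1.03, for Hbb-y at least 1.23 and at most -2.68, for Plekha6 at least 1.78 and at most -1.12, and for Tmem150b at least 1.05 and -1.37.

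Probes that could not be named entered no comparison above. Of 12418 such probes well above background on either wild-type array, 522 (4.2%) were at least 2-fold higher in osteoclasts and 474 (3.82%) at least 2-fold lower, with differences from -4.28 to 5.36.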

How the results depend on the processing

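The 840 higher and 1078 lower genes became 530 higher (494 of them shared) and 795 lower with normexp background correction, 1424 and 1561 without a filter on dim probes, which moved the median of all genes by 0.16, and 406 and 443 at 3-fold. In every other setting run the counts lay within 1.5 times, from 600 to 847 higher and from 950 to 1107 lower. Without the filter the median of the Ms4a genes turned from -1.17 to 0.0569, that of the TNF superfamily ligands from -0.97 to 0.13 and that of the B cell markers from -0.63 to 0.05, while the other 31 of the 34 lists with a median beyond 0.5 kept their direction, and all 34 kept it in each other setting. Without the filter, the medians of the Ms4a genes, TNF ligands and B cell markers cover 18, 17 and 11 genes, against 8, 11 and 6 with it. The cause of the turns was not tested. Of 167 genes past 2-fold whose values are given above, every one with a value kept its direction in each setting. With normexp 9 were no longer past 2-fold (Bach2, Bambi, Clec10a, Clic5, Ddx21, Myo15, Plxna2, Ptger3 and Shmt1), Mt1 was not with quantile normalization and in the authors' deposited table, and Bmf, Clec10a, Plxna2 and Shmt1 were not with the median over probes. No paired analysis was possible because each group has 1 array and no replicate number, and for the same reason none could be left out. Signals near background limit the size of a difference, since 853 genes were measured on 1 wild-type array alone.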

Other observations

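Fam120a, which encodes an RNA-binding protein, stood apart on the wild-type osteoclast array. Among wild-type cells its processed signal was 21233 on the macrophage array and 13.8 on the osteoclast array. Among LysM-St18flox cells it was 29371 and 29325, from 1 spot per array with 0 flags. It was the 1 probe more than 16-fold below 3 agreeing arrays, and the low signal has no replicate behind it. In the other direction, 15 probes on the wild-type osteoclast array and 10 on the wild-type macrophage array were more than 16-fold above the other 3 arrays, which agreed within 2-fold, against 18 and 7 on the LysM-St18flox osteoclast and macrophage arrays.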
